A study of Homo sapiens with 6 samples.

Results

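Selective autophagy receptors are the proteins that choose what an autophagosome encloses, and 9 genes of this class were followed here: CALCOCO1, CALCOCO2, TAX1BP1, SQSTM1, NBR1, OPTN, TOLLIP, FAM134B and TEX264. They were taken by gene name from a table of 56303 gene entries, each matched exactly 1 entry, and all 9 passed the filter on low counts. The RNA came from AGS, an established line of human gastric adenocarcinoma, kept in DMEM/F12 medium with serum and antibiotics in both groups. The siSRSF2 group (3 libraries) was transfected with a small interfering RNA against SRSF2 and carries the genotype label of a knockdown, and the WT group (3 libraries) is labelled wild-type. SRSF2 encodes a serine/arginine-rich protein that binds exons and promotes their inclusion during splicing. Whether WT cells were given a non-targeting siRNA, how much siRNA was used and for how long is not in the labels. Nor do they name separate cultures as the replicates, so each p-value reflects sample-to-sample spread that may be technical. The comparison asked how levels of these mRNAs differed when SRSF2 was silenced. The genes were picked from this class by name, with the siSRSF2 and WT levels of this comparison already known, so their differences are given as a description, without p-values.

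A cargo receptor works as a bridge. One side binds the cargo, often through ubiquitin chains on it, and a short LC3-interacting region on the other side binds proteins of the ATG8 family that are anchored in the growing autophagosome membrane. SQSTM1, NBR1, TAX1BP1, CALCOCO2 and OPTN bind ubiquitin and clear protein aggregates, damaged mitochondria or intracellular bacteria, TOLLIP is a ubiquitin-binding adaptor with a CUE domain, and CALCOCO1, FAM134B and TEX264 serve turnover of the endoplasmic reticulum, called ER-phagy. CALCOCO1, CALCOCO2 and TAX1BP1 are relatives that share an amino-terminal SKICH domain.

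Sequences before the start of transcription were available from RefSeq (GRCh38.p14) for 8 of the 9 genes, without CALCOCO1. Windows of 250 bases are shown for OPTN and NBR1, which were higher in siSRSF2 cells, for CALCOCO2, which was higher by less, and for SQSTM1, which was not higher. RefSeq gives more than 1 start for 6 of the 8 genes. The start nearest to the first exon of the table was used, which lies 633 bases from it in OPTN, 8559 bases in TEX264 and at most 72 bases in the other 6. Each window ends at the base before that start, and capitals mark GC boxes, the letters GGGCGG or their reverse complement.
OPTN (chr10:13099832-13100081, plus strand): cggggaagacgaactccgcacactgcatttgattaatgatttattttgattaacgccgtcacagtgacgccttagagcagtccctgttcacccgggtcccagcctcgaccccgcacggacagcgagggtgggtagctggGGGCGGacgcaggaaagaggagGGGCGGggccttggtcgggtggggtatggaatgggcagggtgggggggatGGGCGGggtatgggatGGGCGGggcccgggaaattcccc
NBR1 (chr17:43170159-43170408, plus strand): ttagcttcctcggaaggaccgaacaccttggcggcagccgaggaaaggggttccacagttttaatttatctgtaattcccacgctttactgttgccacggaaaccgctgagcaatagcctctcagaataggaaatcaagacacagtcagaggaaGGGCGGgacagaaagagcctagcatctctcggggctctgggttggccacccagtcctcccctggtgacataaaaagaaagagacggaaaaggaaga
CALCOCO2 (chr17:48830785-48831034, plus strand): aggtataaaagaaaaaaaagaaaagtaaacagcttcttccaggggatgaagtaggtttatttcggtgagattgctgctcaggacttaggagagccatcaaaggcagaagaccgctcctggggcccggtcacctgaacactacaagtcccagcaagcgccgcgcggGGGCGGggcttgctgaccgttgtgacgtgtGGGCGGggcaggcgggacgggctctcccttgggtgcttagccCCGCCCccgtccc
SQSTM1 (chr5:179806143-179806392, plus strand): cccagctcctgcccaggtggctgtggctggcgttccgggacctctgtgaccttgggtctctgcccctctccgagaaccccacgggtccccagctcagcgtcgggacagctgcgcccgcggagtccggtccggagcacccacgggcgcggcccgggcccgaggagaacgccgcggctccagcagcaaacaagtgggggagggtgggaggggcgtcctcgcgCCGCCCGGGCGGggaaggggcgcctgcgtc
The OPTN window holds 4 GC boxes, CALCOCO2 holds 3, SQSTM1 holds 2 and NBR1 holds 1. G and C make up 63.6% of the OPTN window, 51.6% of NBR1, 58.8% of CALCOCO2 and 75.2% of SQSTM1, against a median of 58.0% over 35116 such windows.

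Short patterns were searched on both strands in these nearest windows of the 8 genes. A GC box was found in 7 of 8, all but TAX1BP1, and in 42.6% of all windows. The NRF2 site core TGACNNNGC was found in CALCOCO2 and TOLLIP (10.9% of all windows). CALCOCO2 also held the FOXO site GTAAACA (2.98% of all windows), the TATA box TATAAA (10.7%) and the hypoxia response core ACGTG (18.5%). The heat shock element core GAANNTTC was found in TAX1BP1 (5.78% of all windows). The E-box CACGTG, which contains ACGTG, and the CCAAT box were found in none of the 8, and in 6.34% and 32.0% of all windows. Windows at other starts differed: the second start of TAX1BP1, 831 bases from the first exon of the table, has 2 GC boxes, that of NBR1 has 2 CCAAT boxes, that of FAM134B has an NRF2 core and no GC box, and that of TOLLIP has neither. Matches are letters in a window, not sites shown to be bound, and the nearest windows of OPTN and NBR1 shared only the GC box among these patterns.

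Total counts ranged from 26610937 to 36651623 in siSRSF2 libraries and from 47518943 to 50021152 in WT libraries, so 3 counts correspond to 0.0778 to 0.110 CPM (counts per 1000000 counts, TMM-scaled) in siSRSF2 and 0.0630 to 0.0657 CPM in WT, counting error only. The targeted gene SRSF2 fell to 22.7 ± 1.83 CPM in the siSRSF2 group, beside 45.0 ± 1.19 CPM in the WT group (SD, n = 3 each; log2 fold change -0.98, SE 0.064, edgeR adjusted p = 4.39e-13), and 36.7% of its exon bases are shared with MFSD11 on the opposite strand. MFSD11 fell as well, to 24.0 ± 0.583 CPM in siSRSF2 cells, against 31.8 ± 0.837 CPM in WT cells (log2 fold change -0.41, edgeR adjusted p = 2.55e-06), and its part in the SRSF2 value was not tested. The keratin genes KRT8 (2776 CPM in siSRSF2, 3236 CPM in WT) and KRT18 (1058 and 1099 CPM) were abundant. EPCAM (5.80 CPM in siSRSF2, 5.00 CPM in WT) and KRT19 (3.18 and 3.21 CPM), which epithelial carcinoma lines usually express strongly, were low in all 6 libraries, so 2 of the 4 epithelial markers go against the label; the reason was not tested. Of 6 gastric markers, MUC6 (4.17 CPM in siSRSF2, 6.01 CPM in WT), CLDN18 (2.33 and 0.733 CPM) and MUC5AC (0.499 and 0.469 CPM) were detected at low levels, and GKN1, TFF1 and TFF2 had 10, 2 and 0 counts over all libraries together. Summed levels of 5 leukocyte markers were 33.9 to 37.9 CPM in siSRSF2 libraries and 24.6 to 26.7 CPM in WT libraries, of which PTPRC stayed at or under 0.259 CPM and CD3E was at 0 in 5 of 6 libraries. Summed levels of 4 fibroblast markers were 42.4 to 46.2 CPM in siSRSF2 and 19.3 to 19.8 CPM in WT, mostly COL1A1 (35.6 and 16.0 CPM), and 3 endothelial markers summed to 0.960 to 1.96 CPM and 3.01 to 3.24 CPM. The part of these differences in the results below was not tested, and in bulk RNA fewer cells of a type and less RNA per cell cannot be told apart.

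CALCOCO1 was the receptor with the largest difference. It is a soluble ER-phagy receptor that binds VAP proteins of the endoplasmic reticulum, and it has also been described as a coactivator of nuclear receptors. CALCOCO1 (chromosome 12, 53708517 to 53727745, minus strand, GRCh38, 14 merged exons) had counts of 5604, 8286 and 6675 in siSRSF2 libraries and of 1424, 1344 and 1476 in WT libraries, although the siSRSF2 libraries were shallower. Scaled by library size these were 206, 215 and 193 CPM in siSRSF2 cells, against 29.9, 29.4 and 31.1 CPM in WT cells. The lowest siSRSF2 library lay far above the highest WT library, and the log2 fold change was 2.76 (SE 0.053), or 6.79-fold. Among the 23689 genes tested, 374 (1.58%) had a log2 fold change at least as high.

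OPTN, a ubiquitin-binding receptor for damaged mitochondria and bacteria that is activated by the kinase TBK1, came next. OPTN (chromosome 10, 13099449 to 13138308, plus strand, 20 merged exons) was at 79.8, 80.9 and 76.9 CPM in siSRSF2 cells, against 16.3, 14.5 and 15.4 CPM in WT cells. The groups were far apart, with a log2 fold change of 2.36 (SE 0.059), or 5.15-fold, a value reached by 2.62% of tested genes. NBR1 (chromosome 17, 43170481 to 43211689, plus strand, 22 merged exons) encodes a receptor for ubiquitinated aggregates and peroxisomes that works with SQSTM1. It was at 188, 187 and 183 CPM in siSRSF2 cells, against 72.0, 74.5 and 71.7 CPM in WT cells. Libraries within each group were nearly alike, and the difference was 2.56-fold (log2 fold change 1.36, SE 0.045), a value reached by 8.81% of tested genes.

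The relatives of CALCOCO1 differed by less. CALCOCO2, also called NDP52, binds galectin-coated bacteria and ubiquitinated mitochondria (chromosome 17, 48830988 to 48866522, plus strand, 20 merged exons). It was at 122, 116 and 114 CPM in siSRSF2 cells, against 75.7, 71.4 and 71.6 CPM in WT cells. This is a 1.61-fold difference without overlap (log2 fold change 0.69, SE 0.048). TAX1BP1, which clears aggregates and ferritin (chromosome 7, 27739331 to 27844564, plus strand, 23 merged exons), was at 193, 185 and 187 CPM in siSRSF2 cells, against 149, 147 and 142 CPM in WT cells. Its groups did not overlap either, at 1.29-fold (log2 fold change 0.37, SE 0.044).

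The best known receptor did not share the direction of CALCOCO1. SQSTM1, or p62, gathers ubiquitinated proteins into condensates and sequesters KEAP1 (chromosome 5, 179806398 to 179838078, plus strand, 16 merged exons). It was at 91.2, 97.0 and 91.1 CPM in siSRSF2 cells, against 102, 105 and 106 CPM in WT cells. All siSRSF2 libraries were lower, by a log2 fold change of -0.17 (SE 0.047), which came to -0.04 with scaling by library totals alone.

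Among the other receptors, TEX264 was lower and the rest overlapped between groups. TEX264, a membrane receptor of ER-phagy (chromosome 3, 51662693 to 51704323, plus strand, 8 merged exons), was at 8.58, 10.2 and 8.95 CPM in siSRSF2 cells, against 12.6, 11.4 and 11.99 CPM in WT cells. Its log2 fold change was -0.37 (SE 0.094), and -0.24 with scaling by library totals. FAM134B, now named RETREG1, bends ER sheets through its reticulon domain (chromosome 5, 16473038 to 16617058, minus strand, 12 merged exons). It was at 2.10, 3.58 and 2.86 CPM in siSRSF2 cells, against 2.18, 2.12 and 2.19 CPM in WT cells, from counts of 57 to 138 per library. The first siSRSF2 library lay below all WT libraries and the other two above them, so the log2 fold change of 0.41 (SE 0.19) was 0.20 without siSRSF2 replicate 2 and 0.58 without siSRSF2 replicate 1. TOLLIP (chromosome 11, 1274371 to 1309654, minus strand, 12 merged exons) was at 7.88, 9.16 and 7.42 CPM in siSRSF2 cells, against 7.85, 7.62 and 9.27 CPM in WT cells. The groups covered the same range, and the log2 fold change of -0.01 (SE 0.11) became 0.12 with scaling by library totals. It also turned positive without siSRSF2 replicate 1 (0.018), siSRSF2 replicate 3 (0.048) or WT replicate 3 (0.071).

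In all, 5 of the 9 receptors were higher and 2 were lower with no overlap between groups. Over all tested genes 63.8% were without overlap, 32.5% higher and 31.2% lower, and 59.1% passed the edgeR test at an adjusted p of 0.05, 30.1% higher and 29.0% lower. The receptors' median log2 fold change was 0.41 and that of all tested genes was 0.02. CALCOCO1, OPTN and NBR1 were over 2-fold higher, while 13.4% of tested genes were over 2-fold higher and also passed the test. No receptor was lower by 2-fold, while 5.91% of tested genes were over 2-fold lower and also passed the test. Nothing is read from the receptors' count, since the comparison was known when they were picked. Scaling by library totals alone shifted the median of all genes by 0.13 on the log2 scale and put 60.9% of calls on the higher side, against 51.0% with TMM scaling.

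**Figure D1:**
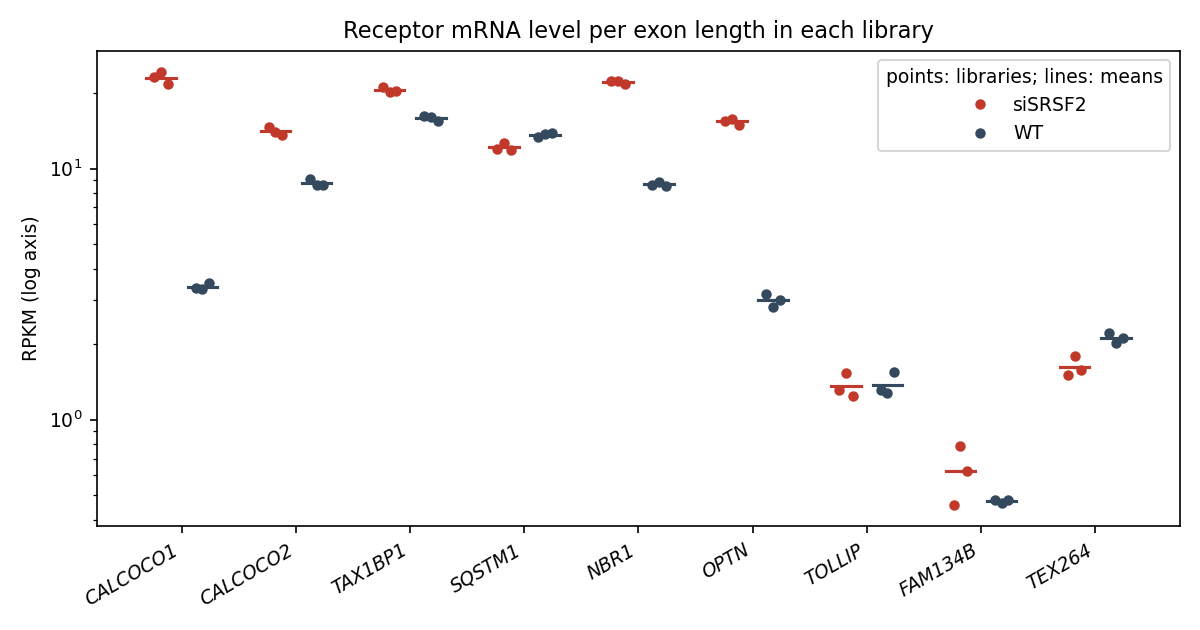
Level of each receptor mRNA in RPKM (CPM per 1000 bases of merged exon, log axis) in every library, siSRSF2 left of WT, with points for libraries and lines for group means of 3 libraries. CALCOCO1 and OPTN average 23.0 and 15.4 RPKM in siSRSF2 cells, against 3.39 and 2.99 RPKM in WT cells, while the points of TOLLIP and FAM134B overlap between groups and those of SQSTM1 and TEX264 lie slightly lower in siSRSF2 cells.

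**Figure D2:**
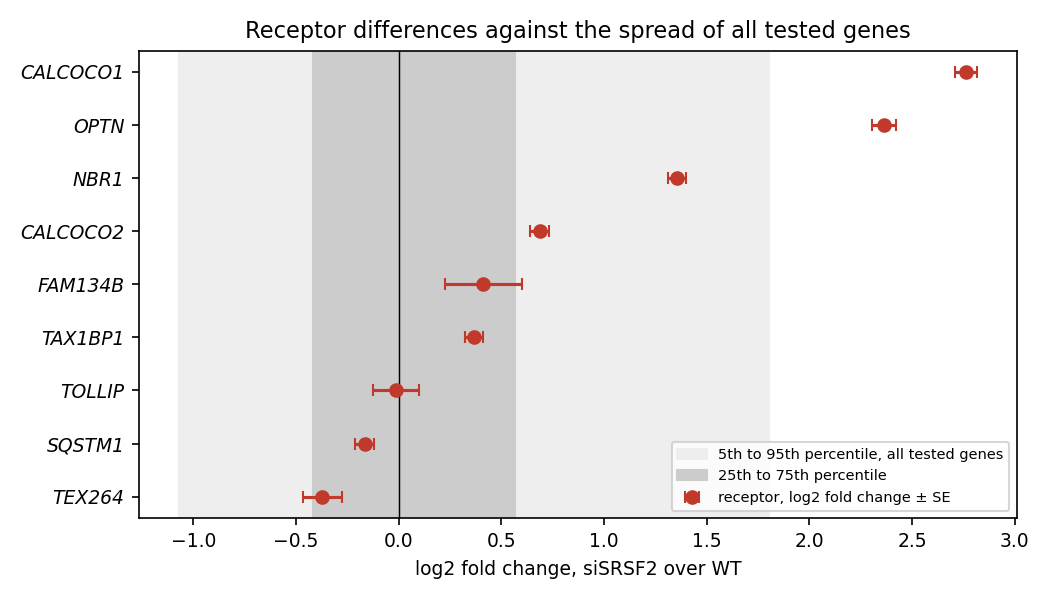
Log2 fold change of each receptor, siSRSF2 over WT, with bars for 1 SE; the grey bands hold the middle of all 23689 tested genes, from the 5th percentile (-1.07) to the 95th (1.80) and from the 25th (-0.42) to the 75th (0.57). CALCOCO1 and OPTN lie beyond the 95th percentile, NBR1 and CALCOCO2 between the 75th and the 95th, and the other 5 within the inner band.

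Levels of different genes can be compared only per length, in RPKM. In siSRSF2 cells CALCOCO1 led at 23.0 ± 1.27 RPKM, followed by NBR1 at 22.2 ± 0.323, TAX1BP1 at 20.5 ± 0.450, OPTN at 15.4 ± 0.404, CALCOCO2 at 14.1 ± 0.506 and SQSTM1 at 12.2 ± 0.438 RPKM (SD, n = 3). In WT cells TAX1BP1 led at 15.9 ± 0.350 RPKM, followed by SQSTM1 at 13.7 ± 0.257, CALCOCO2 at 8.75 ± 0.294, NBR1 at 8.65 ± 0.184, CALCOCO1 at 3.39 ± 0.098 and OPTN at 2.99 ± 0.173 RPKM. CALCOCO1 thus stood at rank 1 of the 9 in siSRSF2 cells and rank 5 in WT cells, and SQSTM1 at ranks 6 and 2. The ranges of CALCOCO1 and NBR1 overlapped in siSRSF2 libraries, and those of CALCOCO2 and NBR1 in WT libraries, so the order within these pairs is not set beyond their spread. TEX264 (1.62 ± 0.149 RPKM in siSRSF2, 2.11 ± 0.101 in WT), TOLLIP (1.36 ± 0.151 and 1.38 ± 0.150) and FAM134B (0.623 ± 0.162 and 0.474 ± 0.008) were the lowest in both groups, and TEX264 and TOLLIP overlapped in siSRSF2 libraries. The lengths join all exons of a gene, so a gene that uses a short transcript has a higher true level per length than its RPKM says.

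Summed over the 9 genes, receptor mRNA stood at 111 ± 2.76 RPKM in siSRSF2 cells and 57.3 ± 0.365 RPKM in WT cells. With CALCOCO1 left out the sum was 88.0 ± 1.54 and 53.9 ± 0.398 RPKM. Most of the difference in the sum lay in CALCOCO1, NBR1 and OPTN. These were at 23.0, 22.2 and 15.4 RPKM in siSRSF2 cells, against 3.39, 8.65 and 2.99 RPKM in WT cells. CALCOCO1 made up 20.7% ± 0.646 of the sum in siSRSF2 cells and 5.91% ± 0.184 in WT cells, and OPTN 13.9% ± 0.030 and 5.22% ± 0.273. SQSTM1 made up 10.96% ± 0.287 in siSRSF2 cells and 23.8% ± 0.595 in WT cells, and TAX1BP1 18.5% ± 0.609 and 27.8% ± 0.512. A share depends on the sum, so a smaller share need not be a lower level. TAX1BP1 itself was at 20.5 RPKM in siSRSF2 cells and 15.9 RPKM in WT cells, and SQSTM1 at 12.2 and 13.7 RPKM. CALCOCO1 had the larger share of CALCOCO1 and SQSTM1 in each siSRSF2 library and the smaller in each WT library, while OPTN stayed below TAX1BP1 in all 6. Shares and ratios within a library do not depend on the scaling between libraries. The RPKM ratio of CALCOCO1 to its relative CALCOCO2 was 1.58, 1.73 and 1.59 in siSRSF2 libraries, against 0.370, 0.386 and 0.407 in WT libraries. For the partners NBR1 and SQSTM1 the ratio was 1.88, 1.76 and 1.83 in siSRSF2 libraries, against 0.641, 0.644 and 0.616 in WT libraries. NBR1 was the more abundant of the pair in each siSRSF2 library, and SQSTM1 in each WT library.

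**Figure D3:**
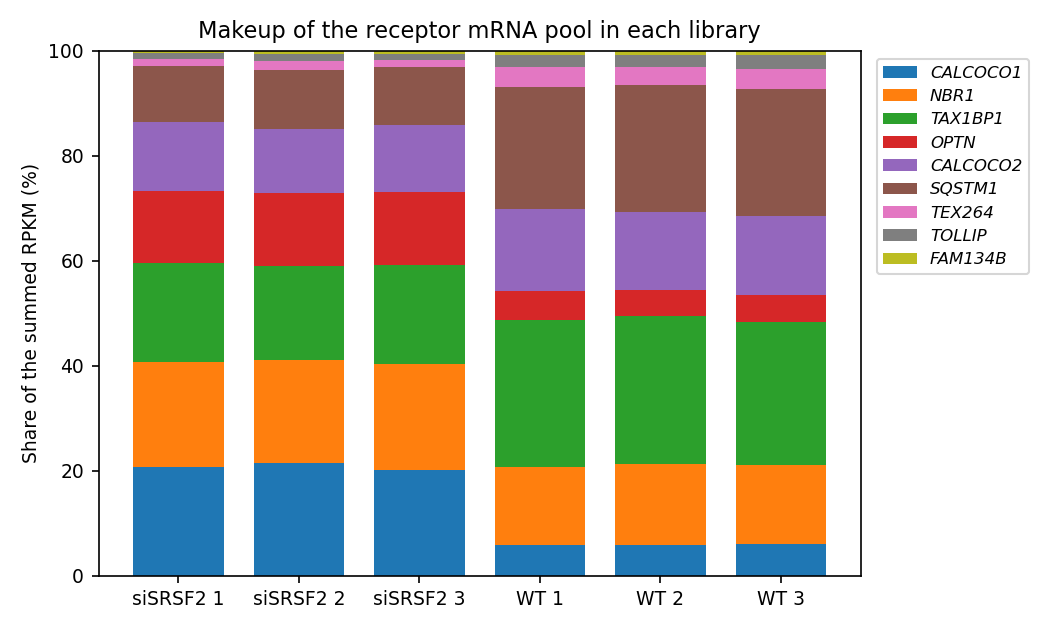
Share (%) of each receptor in the summed RPKM of the 9 genes in every library, siSRSF2 libraries on the left and WT libraries on the right. CALCOCO1 takes 20.7% of the sum in siSRSF2 cells and 5.91% in WT cells, and SQSTM1 takes 10.96% and 23.8%. Shares depend on the sum, so a smaller share need not be a lower level.

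Some receptors share exon positions with a neighbour, and the sources used here do not say whether reads were counted by strand. CALCOCO1, CALCOCO2 and TOLLIP share no exon base with another entry of the table. NBR1 shares 463 bases (5.51% of its exon bases) with RP11-242D8.1 on the opposite strand, which rose to 52.1 ± 4.83 CPM in siSRSF2 cells, against 20.05 ± 0.895 CPM in WT cells (log2 fold change 1.37, SE 0.067, edgeR adjusted p = 1.2e-15). SQSTM1 shares 1582 bases (20.7%) with C5orf45 on the opposite strand, at 20.8 ± 0.379 CPM in siSRSF2 cells and 22.0 ± 0.532 CPM in WT cells, and 105 bases with MGAT4B, at 46.7 ± 2.52 CPM in siSRSF2 cells and 42.9 ± 0.586 CPM in WT cells. Neither neighbour passed the test (edgeR adjusted p = 0.331 for C5orf45 and 0.0562 for MGAT4B). TEX264 shares 184 bases (3.24%) with RAD54L2 on the same strand, which was more abundant and fell to 89.6 ± 0.512 CPM in siSRSF2 cells, against 136 ± 4.08 CPM in WT cells (log2 fold change -0.60, edgeR adjusted p = 1.11e-11). OPTN shares 147 bases with CCDC3, which had at most 10 counts in a library, and FAM134B shares 408 bases with an entry that had at most 2. TAX1BP1 shares 415 bases with JAZF1 and 175 bases with AC004549.6, neither of which passed the test. How much of the NBR1 and TEX264 differences lies in these shared bases was not tested. Reads in shared parts could have been given to either gene or to neither.

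The proteins that receptors dock on are the ATG8 family, and their mRNAs did not all move the same way. Of 7 genes 6 could be tested, of which 4 rose, 1 fell and 1 missed the threshold. The median log2 fold change was 0.60 beside 0.02 over all tested genes. Over all tested genes 30.1% passed the test as higher and 29.0% as lower. These shares stand beside every list below. The lists were chosen with earlier results of these data known, so nothing is read from their counts or medians. GABARAPL1 rose 2.31-fold, at 47.9 ± 4.73 CPM in siSRSF2 cells and 20.8 ± 1.33 CPM in WT cells (log2 fold change 1.21, SE 0.071, edgeR adjusted p = 1.71e-13). GABARAP rose 1.53-fold (edgeR adjusted p = 4.59e-07). GABARAPL2 was at 24.6 CPM in siSRSF2 and 26.7 CPM in WT (log2 fold change -0.12, edgeR adjusted p = 0.131). MAP1LC3A rose 1.49-fold from low levels, at 3.69 CPM in siSRSF2 and 2.48 CPM in WT (edgeR adjusted p = 0.00264). MAP1LC3B2 rose 2.88-fold (edgeR adjusted p = 0.001), but at levels of only 0.830 CPM in siSRSF2 and 0.285 CPM in WT, and it is nearly identical in sequence to MAP1LC3B, so the split of reads between the pair is uncertain. MAP1LC3B was at 15.6 CPM in siSRSF2 and 17.5 CPM in WT (log2 fold change -0.17, edgeR adjusted p = 0.0483), a call that was lost with DESeq2, with scaling by library totals, with a filter at a mean of 1 CPM, with a replicate block and without siSRSF2 replicate 1 or 2 or WT replicate 1 or 2.

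Other ER-phagy receptors went both ways. The 6 tested genes had a median log2 fold change of -0.24, with 2 that rose, 3 that fell and 1 that missed the threshold. Of all tested genes 30.1% rose and 29.0% fell. SEC62, which recovers the ER after stress, fell to 147 ± 8.25 CPM in siSRSF2 cells, against 251 ± 7.12 CPM in WT cells (log2 fold change -0.78, SE 0.047, edgeR adjusted p = 1.24e-13). ATL3, an atlastin of ER tubules, fell as well (log2 fold change -0.55, edgeR adjusted p = 2.99e-11). The mRNAs of the ER proteins VAPA and VAPB, which CALCOCO1 binds, were also lower. The log2 fold change was -0.41 for VAPB (edgeR adjusted p = 1.58e-08) and -0.24 for VAPA (edgeR adjusted p = 8.7e-05). Of the 3 VAP genes listed 1 rose and 2 fell.

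Mitophagy receptors, proteins through which autophagosomes take up mitochondria, were 6 higher and 1 lower of 8, with a median log2 fold change of 0.68. The shares over all tested genes were 30.1% higher and 29.0% lower. BNIP3L, or NIX, rose 3.71-fold, at 99.7 ± 1.86 CPM in siSRSF2 cells and 26.9 ± 0.731 CPM in WT cells (edgeR adjusted p = 1.68e-20). Its relative BNIP3 rose 3.42-fold (edgeR adjusted p = 1.33e-19) and NIPSNAP1, a mitochondrial protein that recruits receptors to damaged mitochondria, rose 2.42-fold (edgeR adjusted p = 4.51e-17). Receptors and adaptors of further cargoes split, 3 higher and 1 lower of 6 (median 0.06). NUFIP1, linked to turnover of ribosomes, fell to 22.0 ± 0.278 CPM in siSRSF2 cells, against 55.9 ± 1.02 CPM in WT cells (log2 fold change -1.35, edgeR adjusted p = 7.48e-17), and HDAC6, a deacetylase that carries ubiquitinated proteins to aggresomes, rose 1.88-fold (edgeR adjusted p = 9.95e-12).

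Kinases that act on receptors, together with their adaptors and regulatory subunits, went both ways. Of 10 tested, 3 were higher, 2 lower and 5 not past the test (median 0.07), beside 30.1% higher and 29.0% lower over all tested genes. With scaling by library totals, and with the filter set to a mean of 1 CPM, 6 were higher. ULK1, the kinase that starts autophagy, rose 3.37-fold, at 33.9 ± 1.73 CPM in siSRSF2 cells and 10.1 ± 0.841 CPM in WT cells (edgeR adjusted p = 1.17e-16). PINK1, which marks damaged mitochondria for OPTN and CALCOCO2, rose 2.28-fold (edgeR adjusted p = 1.32e-15), and CSNK2A1, a catalytic subunit of casein kinase 2, fell (log2 fold change -0.55, edgeR adjusted p = 4.2e-10). The other catalytic subunit gene, CSNK2A2, was at 137 CPM in siSRSF2 and 133 CPM in WT (log2 fold change 0.05, edgeR adjusted p = 0.383). The adaptor gene TBKBP1 was the third of the higher genes and the regulatory subunit gene CSNK2B the other lower one. TBK1, which phosphorylates OPTN, was at 39.5 CPM in siSRSF2 and 40.9 CPM in WT (log2 fold change -0.05, SE 0.055, edgeR adjusted p = 0.42).

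The machinery that builds autophagosomes went both ways, 10 higher, 7 lower and 8 not past the test of 25 (median 0.13). Beside this list and the next ones stand 30.1% higher and 29.0% lower over all tested genes. With scaling by library totals 15 autophagosome formation genes were higher and 4 were lower. ATG2A, a lipid transfer protein, rose 2.44-fold (edgeR adjusted p = 5.52e-13), WIPI1, a phosphoinositide-binding protein, rose 3.23-fold (edgeR adjusted p = 7.98e-12), and ATG101 of the ULK1 complex fell (log2 fold change -0.78, edgeR adjusted p = 1.37e-11). Genes for fusion with the lysosome were 7 higher and 4 lower of 14 (median 0.13). The SNARE gene YKT6 (log2 fold change -0.67, edgeR adjusted p = 7.44e-11) and VPS33A (-0.67, edgeR adjusted p = 2.52e-09) fell, and VPS39, of the HOPS tethering complex, rose 1.45-fold (edgeR adjusted p = 3.05e-09). The MiT-TFE transcription factors and lysosomal targets were 6 higher and 3 lower of 15 tested (median 0.02), and none was lower with scaling by library totals. The protease genes CTSB (1.65-fold, edgeR adjusted p = 3.72e-11) and CTSD (1.65-fold, edgeR adjusted p = 2.42e-09) and the GTPase gene RRAGC (1.96-fold, edgeR adjusted p = 4.08e-10) rose.

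Genes around KEAP1 and NRF2, the antioxidant pathway that SQSTM1 feeds into, were 2 higher and 6 lower of 11. Their median log2 fold change was -0.45, and 4 were higher with scaling by library totals. The 6 lower genes included KEAP1 itself (log2 fold change -0.74, edgeR adjusted p = 8.78e-09). NFE2L2, the gene of NRF2, did not pass the test (0.10, edgeR adjusted p = 0.071). All tested genes were 30.1% higher and 29.0% lower. SRXN1, encoding sulfiredoxin, fell to 14.8 ± 0.953 CPM in siSRSF2 cells, against 38.4 ± 0.736 CPM in WT cells (log2 fold change -1.37, edgeR adjusted p = 1.32e-15). The cystine transporter gene SLC7A11 fell too (-0.79, edgeR adjusted p = 5.46e-11), and HMOX1, encoding haem oxygenase 1, rose 2.33-fold (edgeR adjusted p = 1.08e-11). Partners of CALCOCO1 in its coactivator role were 2 higher and 4 lower of 7 (median -0.30). The acetyltransferase genes CREBBP (-0.91, edgeR adjusted p = 9.36e-16) and EP300 (-0.41, edgeR adjusted p = 1.41e-08) and CCAR1 (-0.46, edgeR adjusted p = 4.66e-08) fell.

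**Figure D4:**
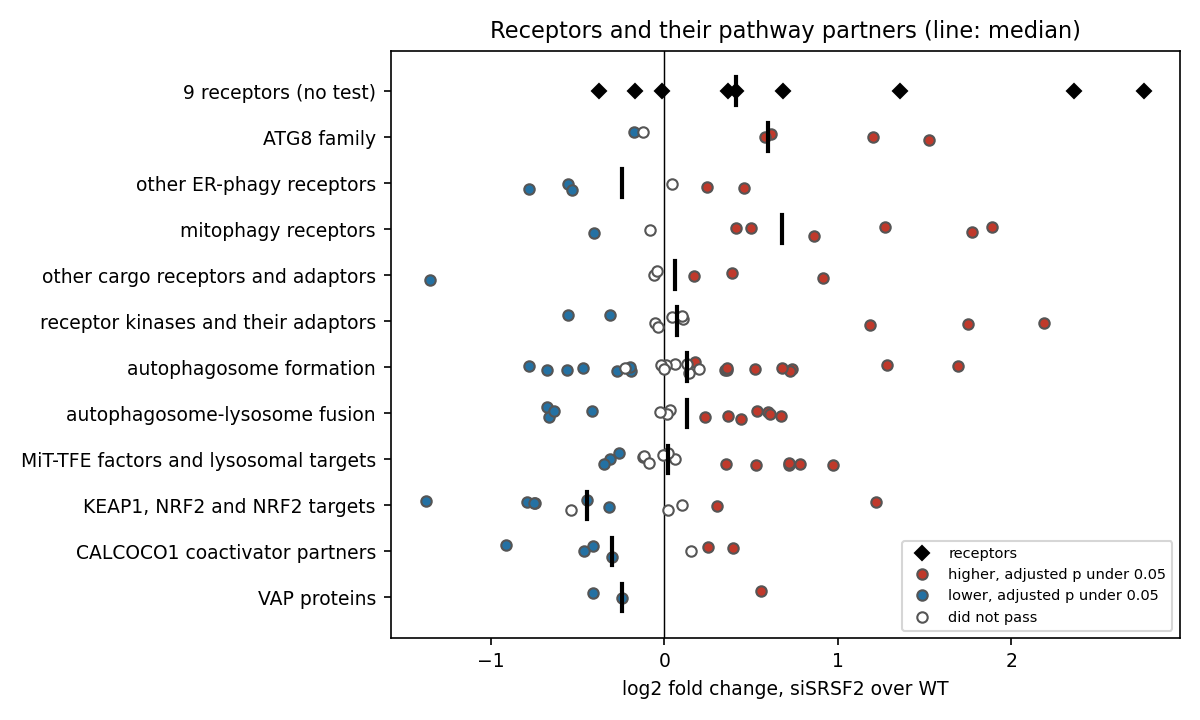
Log2 fold change, siSRSF2 over WT, of the 9 receptors (diamonds, untested) and of the tested genes of 11 pathway lists, coloured where the edgeR adjusted p is under 0.05; black lines are medians. The ATG8 family (median 0.60) and mitophagy receptors (0.68) lie mostly to the right, and the KEAP1 and NRF2 list (-0.45) mostly to the left.

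The profiles of 5 genes were nearest to that of CALCOCO1 over the 6 libraries, by the root mean square difference of log2(CPM + 0.5) after centring each gene, among 11579 genes of at least 5 mean CPM. STAG3, a meiotic cohesin subunit, was nearest (difference 0.053 log2 units), at 83.6 ± 2.85 CPM in siSRSF2 cells and 12.1 ± 0.402 CPM in WT cells. PBXIP1 (0.058), the ceruloplasmin gene CP (0.058), the kinase gene DAPK2 (0.065) and the phospholipase gene PLD1 (0.068) followed. Their log2 fold changes ran from 2.74 in PLD1 to 2.92 in CP, beside 2.76 in CALCOCO1. With 2 groups this likeness is set mainly by the size of the group difference, and these genes were selected for it, so it carries no test.

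**Figure D5:**
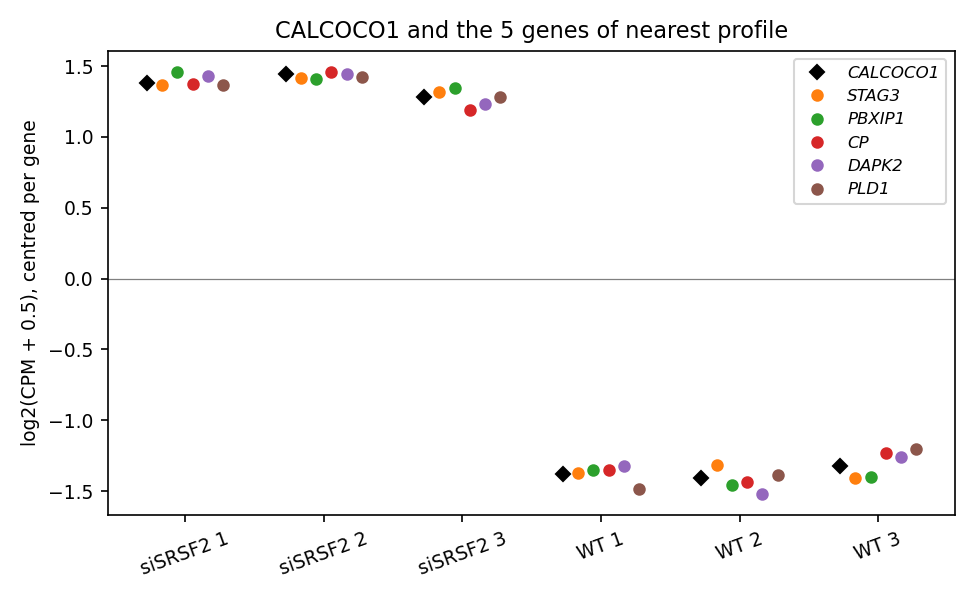
Centred log2(CPM + 0.5) of CALCOCO1 (black diamonds) and of the 5 genes with the nearest profile in each library, siSRSF2 libraries on the left and WT libraries on the right. Points of the 6 genes lie close together in every library.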

How the data were processed

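Per the labels, TRI Reagent served for RNA extraction and the SMARTER mRNA-Seq kit for the libraries. The authors deposited unnormalized read counts for each gene name, together with exon positions and merged exon lengths. The tools named in the submitters' processing notes are HISAT2 2.0.5 and featureCounts 1.5.0-p3. The build named there is mm10, of the mouse, yet the deposited table holds human genes. Of 35942 names found once in GENCODE release 29 (GRCh38), 95.4% started and ended within 1000 bases of that annotation, so positions are given as GRCh38. The sources used here do not give the strand setting, filters or handling of multiply mapped reads.

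Groups and replicate numbers came from the sample titles, which read siSRSF; the genotype label supplies the gene, SRSF2. The analysis used edgeR 4.0.16 under R 4.3.3: filterByExpr (minimum count 10) kept 23689 genes and 99.9% of counts, libraries were scaled by TMM, and the robust quasi-likelihood F test compared siSRSF2 with WT with Benjamini-Hochberg adjustment at 0.05 over all genes. CPM uses TMM-scaled library sizes, RPKM divides it by merged exon length, and the SE is the size of the log2 fold change over the root of F. No libraries were joined, since chi-square per gene between replicates was 3.83 to 8.75, above sampling noise. Without molecular identifiers, floors cover counting error only. The test was tried first on simulated counts, in which far fewer genes differed than here. There 5.34% of calls were false, and 77.6% of 2-fold and 93.2% of 4-fold changes were recovered.

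The members and the 11 lists were chosen with earlier results of these data known, so list counts and medians are a description. The p-values of list genes come from the test over all genes and do not test a list. All 114 list entries were found by name. From each list the 3 tested genes with the smallest p are named (2 for lists of under 7), along with SRSF2, genes sharing exon bases with a member (1 of them given without its name) and the 5 profiles nearest to CALCOCO1. MAP1LC3A, MAP1LC3B, GABARAPL2, TBK1, TBKBP1, CSNK2A2, CSNK2B, FKBP8, KEAP1 and NFE2L2 were added after their values were seen. Alternatives were DESeq2 1.42.0, limma 3.58.1 (voom), RLE factors, library totals, no filter, a mean CPM of at least 1, a fit without robust estimation, a block for replicate number, omission of each library, and levels without division by length.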

Additional observations from a re-analysis of the deposited data

How the results depend on the processing

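The receptors' directions were computed under 14 alternatives. CALCOCO1 kept a log2 fold change between 2.69 (no filter) and 2.89 (library totals), and between 2.72 and 2.80 with 1 library left out. The median of the 9 was 0.34 with no filter, 0.54 with library totals and 0.37 to 0.58 with 1 library left out. TOLLIP changed sign, at 0.12 with library totals, 0.038 with a mean CPM of at least 1 and -0.12 to 0.071 with 1 library left out. No other receptor changed sign. SRSF2 stayed lower in all 14 (log2 fold change -1.06 to -0.85, adjusted p at most 2.59e-10 where 1 library was left out). The whole-table counts ran from 6132 to 8560 higher and from 5492 to 7613 lower. ATG8 genes lower were 0 with library totals, DESeq2, a mean CPM of at least 1 and the replicate block, 2 with no filter, and 0 to 1 with 1 library left out. With library totals, 6 receptor kinases and adaptors were higher, 0 MiT-TFE genes lower and 4 KEAP1 and NRF2 genes higher. Of autophagosome formation genes, 15 were then higher and 4 lower. With a mean CPM of at least 1, 6 kinases and adaptors were higher. With no filter, 2 other cargo receptors were lower and 1 coactivator partner was higher. The cause of these shifts was not tested. Same-numbered libraries did not deviate together (correlations -0.047 to 0.013), and the replicate block gave 6927 genes higher and 6770 lower. CALCOCO1 ranked 1 in siSRSF2 cells also without division by length. Receptors of few counts (FAM134B, TOLLIP, TEX264) are measured least precisely.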

Other observations

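The listed genes MAP1LC3C, ULK2 and RRAGD were too low to test. MAP1LC3C had 0, 2 and 4 counts in siSRSF2 libraries and 0 in each WT library, ULK2 had 7, 6 and 2 counts in siSRSF2 libraries and 6, 10 and 16 in WT libraries, and RRAGD had 2, 4 and 8 counts in siSRSF2 libraries and 0, 4 and 0 in WT libraries. Genes beyond those of smallest p were looked at after their values were seen. TBKBP1, an adaptor of TBK1, rose 4.55-fold, at 2.65 ± 0.302 CPM in siSRSF2 cells and 0.581 ± 0.194 CPM in WT cells (edgeR adjusted p = 2.2e-08), and the mitophagy receptor gene FKBP8 rose 1.82-fold (edgeR adjusted p = 1.42e-06).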
